A study of Mus musculus with 18 samples.

Results

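The BCL2 family genes described here are 3 survival genes (Bcl2, Bcl2l1 and Mcl1), 2 effectors (Bax and Bak1) and 4 BH3-only death genes (Bcl2l11, Bid, Bbc3 and Pmaip1). They were picked by gene symbol from the 16614 genes of the deposited expression table, and all 9 were present and passed the filter on low counts, as 11989 genes did in all. The 18 RNA-seq libraries came from mouse bone marrow-derived dendritic cells (BMDC), grown for 7 to 10 days with the growth factors Flt3L (100 ng/ml) and GM-CSF (20 ng/ml) and purified for XCR1, a surface receptor of type 1 conventional dendritic cells (cDC1). The groups were KO cells with lipopolysaccharide (KO LPS, n = 5), WT cells with lipopolysaccharide (WT LPS, n = 5), untreated KO cells (KO Control, n = 4) and untreated WT cells (WT Control, n = 4). LPS is a bacterial cell wall component that dendritic cells sense through Toll-like receptors. The labels name neither the deleted gene nor the means of its deletion, nor the strain, age, LPS dose or LPS time, and they do not say whether replicates were separate cultures or animals, so the p-values measure only the spread between these samples. By its title, the study is about how STAT5 is balanced against STAT3, both transcription factors that cytokines activate.

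Proteins of the BCL2 family decide whether the outer mitochondrial membrane stays intact. The effectors BAX and BAK form pores in it that release cytochrome c, the survival proteins BCL2, BCL-XL (from Bcl2l1) and MCL1 hold the effectors in check, and BH3-only proteins such as BIM (from Bcl2l11), BID, PUMA (from Bbc3) and NOXA (from Pmaip1) bind the survival proteins or activate the effectors. Activated dendritic cells are short-lived, and in them BIM and the survival proteins are known regulators of that lifespan.

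Libraries held 25590104 to 27375189 estimated counts, and the smallest count behind any value of the 9 genes was 350 (Bcl2 in WT LPS replicate 2 and Bcl2l1 in WT Control replicate 2). Because the targeted gene is not named, the KO labels could not be checked against it. All 9 cDC1 markers were detected in every group, with summed levels of 2774 to 3274 CPM (counts scaled to library size with TMM factors) in KO LPS, 2797 to 3365 CPM in WT LPS, 3791 to 4080 CPM in KO Control and 3857 to 3939 CPM in WT Control. Xcr1 itself, on which the cells were purified, was lower in KO at 281 ± 25.6 CPM in KO LPS against 428 ± 31.2 CPM in WT LPS, and at 109 ± 1.09 CPM in KO Control against 175 ± 5.95 CPM in WT Control (SD). The 10 monocyte and macrophage markers summed to 1736 CPM in KO LPS replicate 2 and 1119 to 1295 CPM in the other KO LPS libraries, and to 1625 CPM in WT LPS replicate 2 and 1321 to 1476 CPM in the other WT LPS libraries. The 8 neutrophil markers summed to 77.0 CPM in WT LPS replicate 5, 24.5 CPM in WT Control replicate 4 and 1.88 to 4.39 CPM elsewhere. The 8 lymphocyte markers summed to at most 11.3 CPM in any library and the 7 erythroid and platelet markers to at most 21.8 CPM. Replicates 2 of both LPS groups have no untreated partner in the run of library numbers given in the labels, and results that rest on them are given with and without them below.

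The promoters of 3 members are shown because the results below turn on these genes: Bcl2l1 and Bcl2l11, which had the largest LPS responses of the 9, and Bbc3, the member called between KO and WT in both conditions. They are the 250 bases before an annotated transcript start, read 5′ to 3′ on the gene's own strand from RefSeq, build GRCm38.p6. The counts were made on GRCm39, so the coordinates do not apply to the authors' alignments. The Bcl2l1 window (the third annotated start) is chr2:152831729-152831978 on the minus strand. The Bcl2l11 window (the first annotated start) is chr2:128125788-128126037 on the plus strand. The Bbc3 window (the first annotated start) is chr7:16309333-16309582 on the plus strand. Other annotated starts of these genes are not shown in full. None of the 3 overlaps an annotated exon. Capitals mark matches to the NF-kB consensus, the binding site of the transcription factors that LPS activates.
Bcl2l1 promoter: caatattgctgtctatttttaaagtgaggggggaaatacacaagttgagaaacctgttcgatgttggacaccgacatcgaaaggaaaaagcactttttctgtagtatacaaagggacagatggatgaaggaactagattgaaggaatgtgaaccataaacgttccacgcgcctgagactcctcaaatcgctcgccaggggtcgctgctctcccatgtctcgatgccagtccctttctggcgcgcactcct
Bcl2l11 promoter: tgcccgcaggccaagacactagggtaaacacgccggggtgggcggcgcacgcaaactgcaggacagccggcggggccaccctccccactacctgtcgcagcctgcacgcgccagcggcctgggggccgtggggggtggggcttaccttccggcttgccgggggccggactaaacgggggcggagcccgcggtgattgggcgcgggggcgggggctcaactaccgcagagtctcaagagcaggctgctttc
Bbc3 promoter: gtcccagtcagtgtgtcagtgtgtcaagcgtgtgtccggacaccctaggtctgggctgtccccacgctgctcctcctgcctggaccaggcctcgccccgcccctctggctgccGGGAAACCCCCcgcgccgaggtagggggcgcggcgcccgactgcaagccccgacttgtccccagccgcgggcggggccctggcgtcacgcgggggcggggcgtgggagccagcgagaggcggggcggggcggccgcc
Bcl2l1, second start, NF-kB match: tgtttgtgGGGGGTCTCCagcatacgcctc
The last line is a stretch of 30 bases (chr2:152830938-152830967, minus strand) around the match upstream of the second annotated start of Bcl2l1, whose 250-base window lies within an annotated exon. The capitals in it lie 242 to 233 bases before that start. In Bbc3 the capitals hold 2 overlapping matches, 137 to 128 and 136 to 127 bases before the first annotated start. The windows of its other annotated starts held no match to the NF-kB consensus.

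RefSeq windows of 8 of the 9 genes were searched, with 13 annotated starts. Pmaip1 was left out of this search, so the counts below do not cover it. Both strands of each 250-base window were searched for 4 motifs. The STAT motif TTCNNNGAA was in 0 of 13 windows, against 7.02% of 32851 promoters of the same length. The NF-kB consensus was in 2 of 13, against 7.25% of all promoters. The interferon-type motif GAAANNGAAA was in 0 of 13, against 2.98%, and the E-box CACGTG was in 2 of 13 (Bax and the third start of Bbc3), against 6.02%. GC content of the windows ran between 47.6% and 81.6%, with a median of 52.4% over all promoters. A missing match says only that these letters are not in these windows.

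Per length, the order of the 9 transcripts was different with LPS and without it. In TPM, which corrects for transcript length, Mcl1 was first in every group, at 654 ± 21.7 TPM in KO LPS, 613 ± 38.8 TPM in WT LPS, 271 ± 7.45 TPM in KO Control and 268 ± 10.5 TPM in WT Control (SD), and its values did not overlap those of the next gene in any group. In both untreated groups Bax (181 TPM in each) and Bak1 (114 TPM in KO Control, 126 TPM in WT Control) followed. Pmaip1, Bid and Bbc3 came next, at 50.1, 40.9 and 21.9 TPM in KO Control and 47.0, 44.1 and 18.1 TPM in WT Control, where the values of Pmaip1 and Bid overlapped. Bcl2l1, Bcl2l11 and Bcl2 stood last, with 9.66, 9.17 and 7.33 TPM in KO Control and 9.89, 8.99 and 8.75 TPM in WT Control, and Bcl2l1 overlapped Bcl2l11 in both.

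With LPS the second place was taken by Pmaip1, at 459 ± 19.6 TPM in KO LPS and 466 ± 35.5 TPM in WT LPS. Bcl2l1 followed in KO LPS, at 246 ± 32.0 TPM, but came after Bax and Bak1 in WT LPS, at 169 ± 46.9 TPM. Its values overlapped those of its neighbours in that order, Bax in KO LPS and Bak1 and Bcl2l11 in WT LPS. Bcl2l11 reached 183 ± 40.7 TPM in KO LPS and 155 ± 46.1 TPM in WT LPS. The last places went to Bbc3, Bid and Bcl2 in both LPS groups without overlap between them, and Bcl2 had 5.05 ± 0.444 TPM in KO LPS and 5.12 ± 1.05 TPM in WT LPS. The length implied for Bcl2 varied between libraries, from 5177 to 6185 bases, so its TPM values are less certain.

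**Figure D1:**
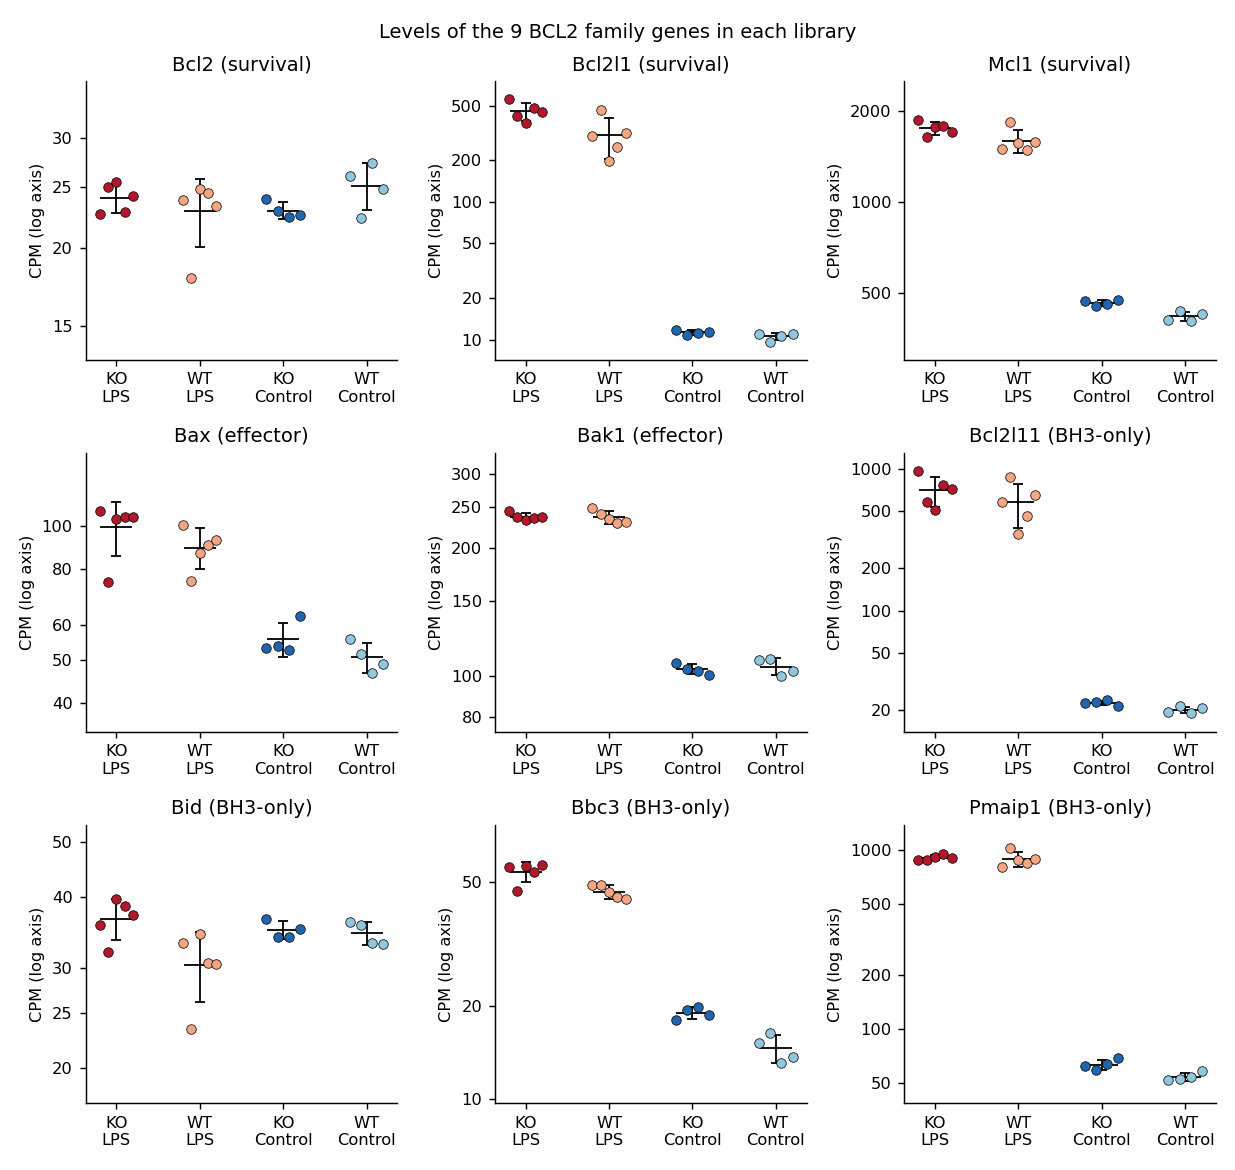
Level of each of the 9 genes in every library, in TMM-scaled CPM on a log axis, with a panel for each gene. Points are libraries in the order of their replicate numbers, horizontal bars are group means and error bars are SD (n = 5 for the LPS groups, n = 4 for the controls). Bcl2l1 lies at 197 to 559 CPM in all LPS libraries and at 9.62 to 11.8 CPM in all controls, while Bcl2 lies between 17.9 and 27.4 CPM throughout.

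LPS raised 7 of the 9 genes in KO cells and the same 7 in WT cells, at an adjusted p below 0.05 (Benjamini-Hochberg over all genes tested; such genes are called), and 6 of them also with total-count scaling, where Bax was not called. Of all genes, 40.0% were called higher with LPS in KO and 40.7% in WT, and 86.2% and 85.5% were called in either direction, so a call by itself says little here and the size of the response is what sets the genes apart. The median log2 fold change of the 9 genes was 1.51 in KO and 1.67 in WT, against -0.10 and -0.06 over all genes tested. These sizes hold with TMM scaling. Total-count scaling moved the median of all genes by -0.78 in KO and -0.74 in WT. The 7 did not overlap between LPS and control libraries in either genotype, as was true of 81.8% of all genes in KO and 77.9% in WT. Bulk RNA cannot tell fewer cells of a kind from less RNA per cell.

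Among the survival genes, Bcl2l1 had the strongest response. It had 559, 420.4, 372, 478 and 450.3 CPM in KO LPS against 11.8, 10.7, 11.1 and 11.4 CPM in KO Control, and 301, 466, 197, 250.5 and 318 CPM in WT LPS against 10.9, 9.62, 10.6 and 11.0 CPM in WT Control. Every LPS library was far above every control, and the LPS libraries were spread much more widely than the controls. The log2 fold change was 5.34 ± 0.21 (SE, adjusted p = 4.0e-15) in KO, a 40.5-fold difference, and 4.86 ± 0.20 (adjusted p = 1.5e-14) in WT, a 29.1-fold difference. Mcl1, whose protein is rapidly turned over and has to be replaced from its mRNA, had 1866, 1644, 1775, 1786 and 1713 CPM in KO LPS against 469, 451, 461 and 473 CPM in KO Control. In WT cells it had 1498, 1840.1, 1567, 1489 and 1579 CPM with LPS against 408, 436, 405 and 426 CPM without. Mcl1 thus rose in both genotypes by nearly the same amount, 1.92 ± 0.06 in KO (adjusted p = 1.6e-16) and 1.93 ± 0.06 in WT (adjusted p = 1.8e-16) on the log2 scale. Over the other settings, which include total-count scaling, its lowest values were 1.14 in KO and 1.18 in WT.

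Bcl2, the founding survival gene of the family, did not pass the test in either genotype. Its values were 22.6, 25.0, 25.4, 22.9 and 24.3 CPM in KO LPS against 23.9, 22.9, 22.4 and 22.5 CPM in KO Control, and 23.9, 17.9, 24.9, 24.4 and 23.4 CPM in WT LPS against 26.1, 22.3, 27.4 and 24.8 CPM in WT Control. The groups overlapped in both genotypes. The log2 differences were 0.07 ± 0.08 (adjusted p = 0.44) in KO and -0.14 ± 0.08 (adjusted p = 0.12) in WT. These depend on the scaling: with total-count scaling in place of TMM, which moves the median of all genes by -0.78 in KO and -0.74 in WT, Bcl2 fell with LPS by 0.71 in KO (adjusted p = 1.3e-06) and by 0.87 in WT (adjusted p = 6.9e-08). Over its alternatives, the adjusted p of Bcl2 ran up to 0.83 in KO and 0.37 in WT.

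The effectors had the smallest log2 fold changes of the 7 genes that rose. Bak1 had 245, 238, 232, 236 and 237 CPM in KO LPS against 107, 104, 103 and 101 CPM in KO Control, and 249, 241, 234, 229.6 and 230.3 CPM in WT LPS against 109, 109, 99.7 and 103 CPM in WT Control. It was the most even member among replicates in the LPS groups, with a coefficient of variation of 1.96% in KO LPS and 3.40% in WT LPS, and its log2 fold change was 1.20 ± 0.04 in KO and 1.17 ± 0.04 in WT (adjusted p = 1.2e-15 and 2.0e-15). Over the other settings, which include total-count scaling, the lowest values of Bak1 were 0.41 in KO and 0.42 in WT. Bax had 108, 74.8, 104, 105 and 105 CPM in KO LPS against 53.2, 53.9, 52.8 and 62.8 CPM in KO Control, and 101, 75.1, 87.1, 90.7 and 93.2 CPM in WT LPS against 55.9, 51.5, 46.7 and 49.1 CPM in WT Control. Replicate 2 was the lowest library of both LPS groups. The log2 fold change of Bax was 0.83 ± 0.10 in KO (adjusted p = 1.5e-07) and 0.81 ± 0.10 in WT (adjusted p = 2.3e-07), but with total-count scaling it was 0.05 in KO (adjusted p = 0.65) and 0.07 in WT (adjusted p = 0.51).

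Of the 4 BH3-only genes, 3 rose with LPS. Bcl2l11, which encodes BIM, had 959.9, 585, 513, 766 and 716 CPM in KO LPS against 22.2, 22.6, 23.3 and 21.3 CPM in KO Control, and 581, 873, 347, 466 and 653 CPM in WT LPS against 19.2, 21.1, 18.9 and 20.6 CPM in WT Control. Its response was about as large as that of Bcl2l1, with log2 fold changes of 4.98 ± 0.24 (adjusted p = 1.0e-13) in KO and 4.87 ± 0.24 (adjusted p = 1.6e-13) in WT. Pmaip1, whose product NOXA binds MCL1, had 883, 879.7, 921, 949.7 and 902 CPM in KO LPS against 61.8, 58.6, 63.8 and 68.4 CPM in KO Control. In WT cells it had 807, 1030.3, 877, 849 and 896 CPM with LPS against 51.8, 52.6, 54.0 and 58.1 CPM without. The log2 fold changes were 3.84 ± 0.07 in KO (adjusted p = 1.4e-19) and 4.04 ± 0.07 in WT (adjusted p = 8.7e-20). Unlike Bcl2l1 and Bcl2l11, Pmaip1 varied little among LPS libraries, with a coefficient of variation of 3.21% in KO LPS and 9.46% in WT LPS.

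Bbc3, which encodes PUMA, a p53 target in many cell types, had 56.0, 46.8, 56.3, 53.9 and 56.6 CPM in KO LPS against 17.9, 19.4, 19.8 and 18.7 CPM in KO Control, and 48.9, 49.0, 46.3, 44.6 and 43.9 CPM in WT LPS against 15.1, 16.4, 13.1 and 13.7 CPM in WT Control. It rose by 1.51 ± 0.07 in KO (adjusted p = 7.9e-14) and 1.67 ± 0.07 in WT (adjusted p = 2.3e-14) on the log2 scale. Over the other settings, which include total-count scaling, the lowest values of Bbc3 were 0.72 in KO and 0.93 in WT. Bid, which carries the death receptor signal to mitochondria after cleavage by caspase 8, had 35.7, 32.0, 39.7, 38.6 and 37.1 CPM in KO LPS against 36.6, 34.0, 34.0 and 35.2 CPM in KO Control, and 33.2, 23.4, 34.5, 30.6 and 30.5 CPM in WT LPS against 36.1, 35.7, 33.2 and 33.1 CPM in WT Control. Its groups overlapped in both genotypes, and the log2 differences were 0.07 ± 0.08 in KO (adjusted p = 0.46) and -0.18 ± 0.08 in WT (adjusted p = 0.053). In WT, Bid was called lower with LPS in 5 of 10 other settings and in 3 of 18 fits with 1 library left out. Its value was -0.92 with total-count scaling (adjusted p = 4.3e-08) and lay between -0.23 and -0.10 in the others, with an adjusted p of up to 0.15; blocking on the run of library numbers gave -0.12 (adjusted p = 0.046). In KO the direction of Bid reversed with total-count scaling, to -0.71 (adjusted p = 1.5e-06), and without replicates 2 of both LPS groups it was higher with LPS, at 0.13 (adjusted p = 0.026), within a range of 1.5e-06 to 0.84 for the adjusted p.

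**Figure D2:**
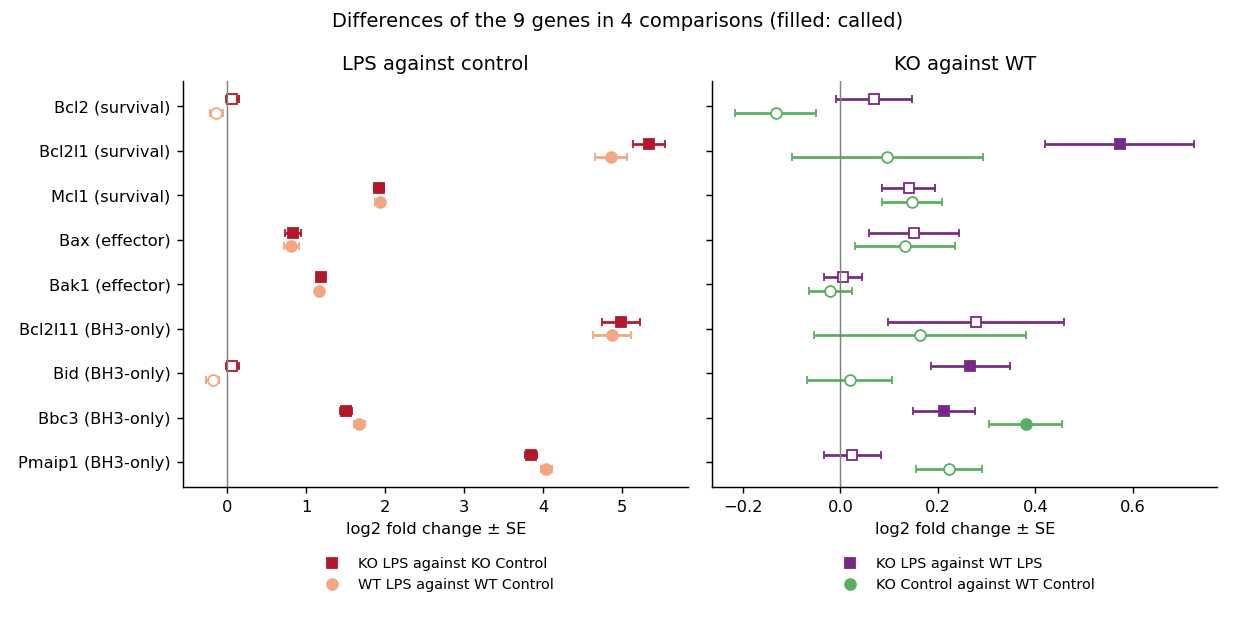
Log2 fold change of each gene with its standard error, for LPS against control in each genotype (left) and for KO against WT in each condition (right). Filled symbols were called at an adjusted p below 0.05. The LPS differences of Bcl2l1, Bcl2l11 and Pmaip1 lie between 3.84 and 5.34, and the KO differences all lie between -0.13 and 0.57.

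With LPS, 3 of the 9 genes were called between the genotypes, and all 3 were higher in KO: the survival gene Bcl2l1 and the BH3-only genes Bid and Bbc3. Of all genes tested, 10.8% were called in this comparison, with 5.30% called higher and 5.50% called lower in KO. When only the LPS libraries were fitted, 0 of the 9 were called, next to 5.53% of all genes. All 9 log2 differences were positive with TMM scaling, while those of Bcl2, Bak1 and Pmaip1 were below 0 with total-count scaling, and their median was 0.15 against -0.02 over all genes tested. No member was free of overlap between KO LPS and WT LPS libraries, as 6.51% of all genes were.

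Bcl2l1 averaged 456 ± 69.6 CPM in KO LPS and 306 ± 101 CPM in WT LPS (SD, n = 5 each), a 1.49-fold difference (log2 0.57 ± 0.15 SE, adjusted p = 0.020). In WT LPS, 4 of the 5 libraries, at 197 to 318 CPM, lay below every KO LPS library, and replicate 2, at 466 CPM, lay among them. Without WT LPS replicate 2 the log2 difference was 0.77 (adjusted p = 4.8e-05). The call was lost without WT LPS replicate 4 (adjusted p = 0.063), without KO LPS replicate 1 (adjusted p = 0.071) and when only the 10 LPS libraries were fitted (adjusted p = 0.11). Over the alternatives the adjusted p ran between 4.8e-05 and 0.11, and the log2 difference between 0.45 and 0.81.

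Bid averaged 36.6 ± 3.00 CPM in KO LPS and 30.4 ± 4.28 CPM in WT LPS, a 1.20-fold difference (log2 0.27 ± 0.08, adjusted p = 0.041). WT LPS replicate 2, at 23.4 CPM, was the lowest of the 10 libraries, and without it the difference was 0.19 (adjusted p = 0.027). Bbc3 averaged 53.9 ± 4.09 CPM in KO LPS and 46.5 ± 2.35 CPM in WT LPS, a 1.16-fold difference (log2 0.21 ± 0.06, adjusted p = 0.039). KO LPS replicate 2, at 46.8 CPM, lay within the WT LPS range of 43.9 to 49.0 CPM, and the other 4 KO LPS libraries lay above it. Both calls were near the threshold: leaving out 1 library at a time ended that of Bid in 11 of 18 fits and that of Bbc3 in 7 of 18. Over all alternatives the adjusted p of Bid ran between 0.0020 and 0.23 and that of Bbc3 between 0.0012 and 0.18.

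The other 6 genes did not pass the test in this comparison. Mcl1 averaged 1757 ± 83.2 CPM in KO LPS and 1595 ± 143 CPM in WT LPS, a log2 difference of 0.14 with a 95% interval of 0.03 to 0.25 (adjusted p = 0.11), and it was called by DESeq2 (adjusted p = 0.039) and without WT LPS replicate 2 (0.20, adjusted p = 0.0021), in a range of 0.00050 to 0.32. Bcl2l11 averaged 708 ± 173 CPM in KO LPS and 584 ± 199 CPM in WT LPS, and the 95% interval of its log2 difference of 0.28 ran from -0.10 to 0.66. Bax averaged 99.2 ± 13.8 and 89.3 ± 9.37 CPM in KO LPS and WT LPS, with an interval of -0.04 to 0.34. For Bak1 the interval was -0.08 to 0.09, for Pmaip1 -0.10 to 0.15 and for Bcl2 -0.09 to 0.23, and the sign of these 3 small differences turned with total-count scaling. Without replicates 2 of both LPS groups, 6 genes were called higher in KO LPS (Bcl2l1, Mcl1, Bcl2l11, Bax, Bid and Bbc3), and 27.1% of all genes were called in that fit.

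Markers of other cell types and of cycling cells moved with some of these values. The 6 proliferation genes summed to 622 to 799 CPM in KO LPS and 607 to 1063 CPM in WT LPS. Of the 6, edgeR and DESeq2 called 1 lower in KO and limma-voom 0, 5 had an unadjusted p below 0.05, and 5 were called lower without WT LPS replicate 2. WT LPS replicate 2, the library highest in Bcl2l1, Mcl1, Bcl2l11, Bbc3 and Pmaip1 and lowest in Bcl2, Bax and Bid within its group, also had the lowest proliferation sum of the 10 LPS libraries (607 CPM) and the highest monocyte and macrophage sum of its group. Its cDC2 markers summed to 256 CPM against 172 to 205 CPM in the other WT LPS libraries. Its plasmacytoid dendritic cell markers summed to 671 CPM against 466 to 516 CPM. That sum was mostly Bst2 and Tcf4, with WT LPS means of 365 and 149 CPM. Ccr9 and Siglech averaged 7.35 and 1.23 CPM in that group. KO LPS replicate 2, lowest of its group in Mcl1, Bax, Bid, Bbc3 and Pmaip1, had the highest monocyte and macrophage sum (1736 CPM). Some markers separated KO LPS from WT LPS in every library: the lymphocyte sum was 9.78 to 11.3 CPM in KO LPS and 5.73 to 8.53 CPM in WT LPS, and that of mast cell and basophil markers, nearly all of it Kit, 157 to 177 CPM in KO LPS and 186 to 196 CPM in WT LPS. Of the 9 cDC1 markers, 4 were called lower in KO LPS (Xcr1, Itgae, Batf3 and Flt3) and 1 higher (Cadm1), next to 10.8% of all genes called. The part of these markers in the results was not tested.

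In untreated cells only Bbc3 was called, and it was higher in KO. Of all genes tested, 2.41% were called and 1.89% were called higher in KO. Bbc3 had 17.9, 19.4, 19.8 and 18.7 CPM in KO Control against 15.1, 16.4, 13.1 and 13.7 CPM in WT Control. Every KO library lay above every WT library, and the fold difference was 1.30 (log2 0.38 ± 0.07, adjusted p = 0.0076). The call was kept under each of the alternatives run, with an adjusted p of 0.00056 to 0.048. Bbc3 was thus the member called between KO and WT in both conditions, by fitted differences of 0.38 without LPS and 0.21 with it.

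Pmaip1 had 61.8, 58.6, 63.8 and 68.4 CPM in KO Control against 51.8, 52.6, 54.0 and 58.1 CPM in WT Control, again with every KO library above every WT library, but did not pass the test (log2 0.22 ± 0.07, adjusted p = 0.098). It was called in 4 of the alternatives, including the fit of the 8 control libraries alone (adjusted p = 0.044) and the fit without WT LPS replicate 2 (adjusted p = 0.014), and the adjusted p ran between 0.014 and 0.28 over all of them. Mcl1, at 463 ± 9.87 CPM in KO Control and 419 ± 14.9 CPM in WT Control, and Bcl2l11, at 22.4 ± 0.83 and 20.0 ± 1.06 CPM, also did not overlap between the genotypes and were not called (adjusted p = 0.27 and 0.83). In all, 4 of the 9 genes had every KO Control library above every WT Control library, against 9.22% of all genes. The standard error of the Bcl2l1 difference was 0.20 in the fit of all 18 libraries, with a 95% interval of -0.32 to 0.51, and 0.07 in the fit of the 8 control libraries alone, which called neither Bcl2l1 (adjusted p = 0.55) nor Bcl2l11.

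The remaining 5 genes overlapped between KO Control and WT Control, with log2 differences of -0.13 for Bcl2, 0.10 for Bcl2l1, 0.13 for Bax, -0.02 for Bak1 and 0.02 for Bid, the last of which was -0.03 with total-count scaling. The median over the 9 genes was 0.13, against 0.02 over all genes tested. The proliferation genes summed to 1012 to 1081 CPM in KO Control and 1303 to 1506 CPM in WT Control. Of the 6, edgeR and limma-voom called 1 lower in KO and DESeq2 2, 4 had an unadjusted p below 0.05, and 4 were called lower without WT LPS replicate 2. The mast cell and basophil markers summed to 257 to 294 CPM in KO Control and 204 to 245 CPM in WT Control. The plasmacytoid dendritic cell markers summed to 84.4 to 90.8 CPM and 80.5 to 81.3 CPM in the same groups, again without overlap. Of these, Bst2 averaged 43.4 CPM in KO Control and 33.6 CPM in WT Control, and Tcf4 30.4 and 30.3 CPM. Ccr9 (10.3 and 13.2 CPM) and Siglech (3.57 and 3.76 CPM) had lower means in KO Control. The monocyte and macrophage markers summed to 1839 to 2106 CPM in KO Control and 1780 to 1870.2 CPM in WT Control, with 0 of 10 called by edgeR, DESeq2 or limma-voom (1 at an unadjusted p below 0.05). Their part in the Bbc3 difference was not tested.

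Whether the LPS response itself differed between KO and WT was tested with an interaction term, which called 0 of the 9 genes with any of the 3 tools (edgeR, DESeq2, limma-voom); the unadjusted p was below 0.05 for 1 of them, Pmaip1. Of all genes, 3.82% were called. The difference in response was largest for Bcl2l1, at 0.48 ± 0.25 on the log2 scale (95% interval -0.04 to 1.00, adjusted p = 0.32), followed by Bid at 0.25 ± 0.12 (interval -0.00292 to 0.50, adjusted p = 0.28). It was -0.20 ± 0.09 for Pmaip1 (adjusted p = 0.24) and -0.17 ± 0.10 for Bbc3 (adjusted p = 0.37). Bcl2l1 was called without WT LPS replicate 2 (0.68, adjusted p = 0.019) and without replicates 2 of both LPS groups (0.74, adjusted p = 0.014), where Bid was called too (0.25, adjusted p = 0.037); those fits called 12.5% and 13.3% of all genes. Over its alternatives, the adjusted p of the Bcl2l1 interaction ran between 0.014 and 0.46 and that of Bid between 0.037 and 0.48.

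Ratios between members within a library do not depend on how libraries are scaled against each other. These ratios were looked at with the values in view and are given without a test. The 9 genes together took 1986 ± 93.7 TPM in KO LPS, 1831 ± 101 TPM in WT LPS, 706 ± 11.8 TPM in KO Control and 712 ± 6.88 TPM in WT Control. The 3 survival genes held 45.6 ± 0.760% of that sum in KO LPS, 42.9 ± 1.49% in WT LPS, 40.9 ± 0.638% in KO Control and 40.2 ± 1.30% in WT Control. The effectors held 18.7% in KO LPS and 19.9% in WT LPS, against 41.8% in KO Control and 43.1% in WT Control, and the BH3-only genes held 35.7% and 37.1% with LPS against 17.3% and 16.6% without. So in LPS libraries the BH3-only share was larger and the effector share smaller than in controls. The survival share was higher in every LPS library than in every control of its genotype, at 44.7% to 46.4% in KO LPS against 40.0% to 41.4% in KO Control and 41.9% to 45.6% in WT LPS against 38.4% to 41.2% in WT Control.

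Among the members, the ratio of survival to BH3-only transcripts was 1.31, 1.29, 1.29, 1.24 and 1.24 in KO LPS. In WT LPS it was 1.17, 1.17, 1.17, 1.15 and 1.13. All KO LPS libraries lay above all WT LPS libraries, and WT LPS replicate 2 did not stand apart in this ratio. In untreated cells the ratio was 2.40, 2.38, 2.33 and 2.34 in KO Control against 2.36, 2.45, 2.43 and 2.44 in WT Control, and the groups overlapped. Bcl2l1 per Bcl2l11 was 1.21 to 1.51 in KO LPS and 1.01 to 1.18 in WT LPS, and 0.986 to 1.12 in KO Control and 0.962 to 1.19 in WT Control. Mcl1 per Pmaip1 was 1.38 to 1.56 in KO LPS and 1.29 to 1.37 in WT LPS, and 5.09 to 5.66 in KO Control and 5.40 to 6.10 in WT Control. Bcl2l1 made up 27.1 ± 2.55% of the transcripts of the survival members in KO LPS and 21.3 ± 4.26% in WT LPS. Its share was 3.35 ± 0.0852% in KO Control and 3.46 ± 0.273% in WT Control. Family genes outside the members, among them the survival gene Bcl2a1d and the BH3-only genes Bmf and Bad, are not in these ratios. Bcl2a1d averaged 2838 TPM in KO LPS, 2271 TPM in WT LPS, 120 TPM in KO Control and 92.5 TPM in WT Control. The ratios thus do not describe the whole family.

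**Figure D3:**
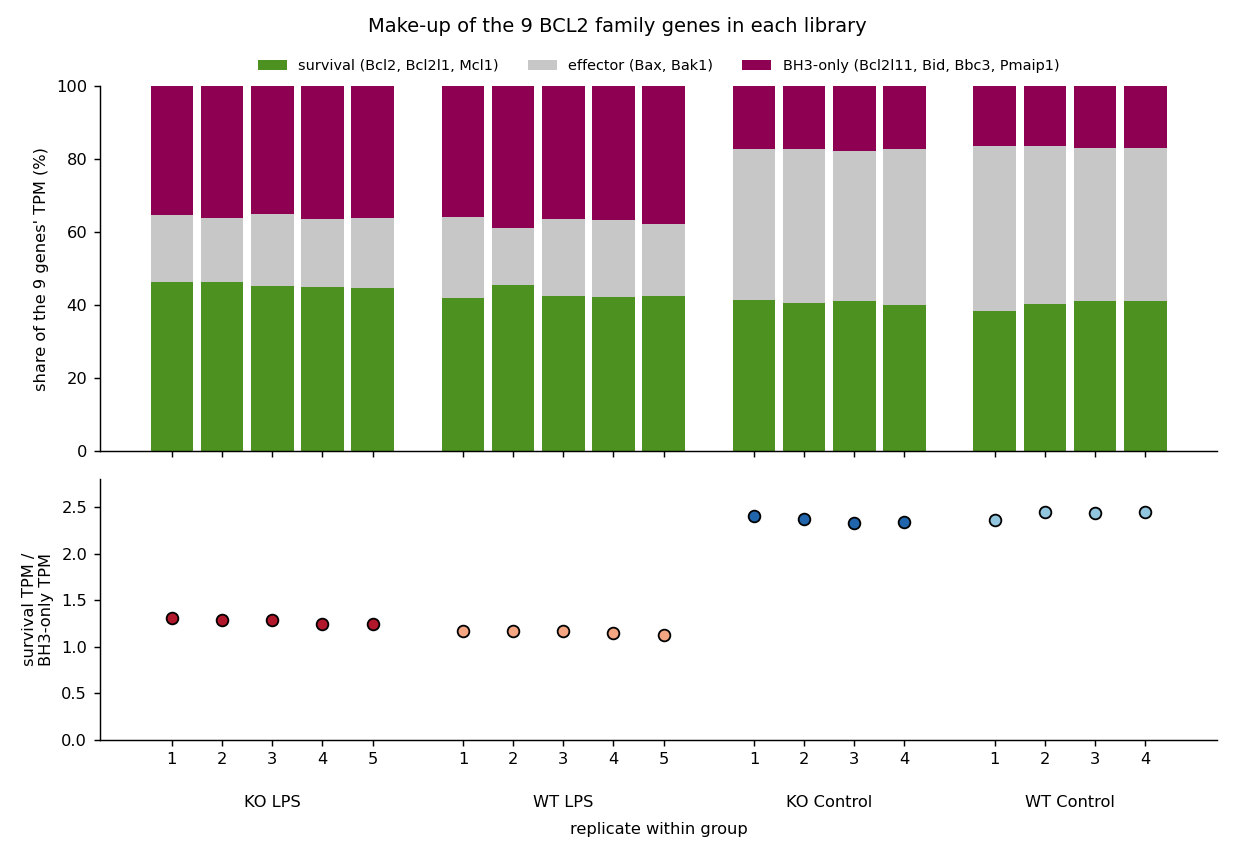
Top: share of the summed TPM of the 9 genes held by survival, effector and BH3-only genes in each library. Bottom: survival TPM divided by BH3-only TPM among these 9 genes in each library. The ratio is 1.24 to 1.31 in KO LPS, 1.13 to 1.17 in WT LPS, 2.33 to 2.40 in KO Control and 2.36 to 2.45 in WT Control.

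Bcl2l1 and Bcl2l11 shared their order of libraries within each LPS group, although Bcl2l1 encodes a survival and Bcl2l11 a death protein. From high to low, both ran over replicates 1, 4, 5, 2 and 3 in KO LPS and over replicates 2, 5, 1, 4 and 3 in WT LPS. The highest library had 1.5 times the lowest for Bcl2l1 and 1.87 times for Bcl2l11 in KO LPS, and 2.36 and 2.52 times in WT LPS. Their coefficients of variation, 15.3% and 24.5% in KO LPS and 32.9% and 34.1% in WT LPS, stood above those of 92.1% and 98.2% of genes with at least 5 CPM in KO LPS and of 96.5% and 97.0% in WT LPS, where the median gene had 6.48% and 9.91%. In untreated cells they were 4.05% and 3.71% in KO Control and 6.0% and 5.29% in WT Control, against medians of 5.79% and 5.30%. The summed proliferation genes ran nearly in the reverse order in both LPS groups, lowest in KO LPS replicate 1 (622 CPM) and in WT LPS replicate 2 (607 CPM). Nothing in the labels says what separates these replicates, and with 5 libraries per group no correlation is given.

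**Figure D4:**
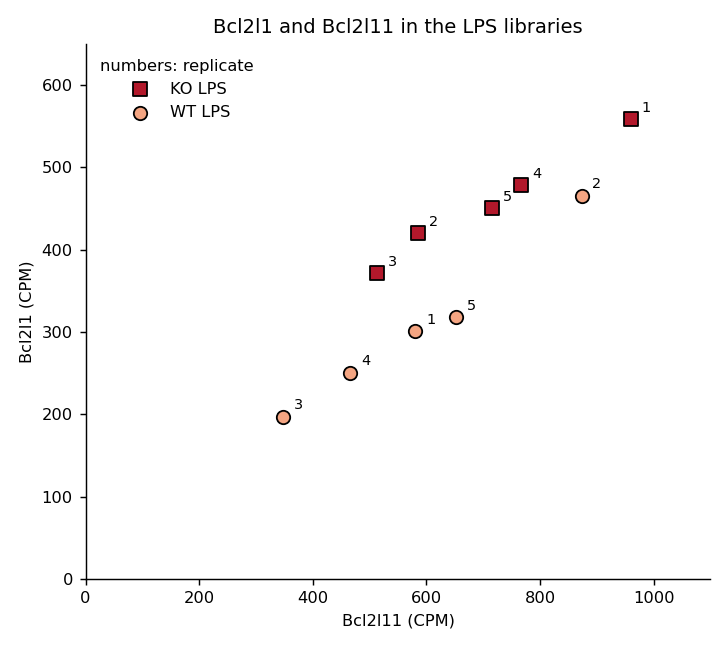
Bcl2l1 against Bcl2l11 in the 10 LPS libraries, both in CPM on linear axes from 0; numbers are replicates. Within each genotype the libraries fall in the same order on both axes, and KO LPS libraries have more Bcl2l1 at a given Bcl2l11, with 1.21 to 1.51 TPM of Bcl2l1 per TPM of Bcl2l11 against 1.01 to 1.18 in WT LPS.

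Other members of the family moved in both directions with LPS, and the A1 genes, which encode further survival proteins, rose most. Of 13 other family genes tested, 6 rose and 4 fell in KO, and 6 rose and 4 fell in WT, with list medians of 0.03 and 0.24. The share of all genes called with LPS was 86.2% in KO and 85.5% in WT. Bcl2a1b averaged 850.5 CPM in KO LPS and 11.1 CPM in KO Control (log2 fold change 6.26 ± 0.25), and 655 CPM in WT LPS and 8.0 CPM in WT Control (6.35 ± 0.25). Bcl2a1a and Bcl2a1c rose by 5.79 and 6.07 in KO and by 5.97 and 5.94 in WT. The Bcl2a1 copies are nearly identical and how shared reads were divided among them is not given, so their single values are uncertain. Bcl2l12, Bmf and Bad fell with LPS, with log2 fold changes of -2.92, -1.08 and -1.20 in KO and -2.59, -1.10 and -0.74 in WT. BMF and BAD are BH3-only proteins, so that within this class some genes rose and others fell.

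Between KO LPS and WT LPS, edgeR called 0 of these 13 higher and 1 lower in KO, DESeq2 called 1 higher and 1 lower, limma-voom called 2 higher and 1 lower, and 5 had an unadjusted p below 0.05. The gene that edgeR called was Bad, at 6.32 CPM in KO LPS and 8.56 CPM in WT LPS (-0.44 ± 0.08, adjusted p = 0.0013), with every KO library below every WT library, and its LPS response also differed (interaction -0.46 ± 0.11, adjusted p = 0.025). Bcl2a1d averaged 1195 CPM in KO LPS and 933 CPM in WT LPS (0.36 ± 0.12, adjusted p = 0.060), and 32.1 CPM in KO Control and 22.6 CPM in WT Control (0.50 ± 0.14, adjusted p = 0.070), and was not called in either. Without WT LPS replicate 2, 5 of the 13 were called higher and 1 lower in KO LPS, in a fit that called 27.9% of all genes in this comparison against 10.8% with all libraries. In untreated cells 0 of 13 were called by edgeR or limma-voom and 1 by DESeq2, 1 had an unadjusted p below 0.05, and 1 was called higher without WT LPS replicate 2, where 6.28% of all genes were called.

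Downstream of the mitochondria, LPS raised 10 and lowered 6 of 17 genes of the apoptosome and of the inhibitors of apoptosis in each genotype. The list medians were 1.11 in KO and 1.03 in WT. The share of all genes called with LPS was 86.2% in KO and 85.5% in WT. Birc3, an inhibitor of apoptosis, rose by 3.41 ± 0.10 in KO and 3.40 ± 0.10 in WT. Casp6, an executioner caspase, fell by 4.19 ± 0.09 in KO, to 2.81 CPM in KO LPS against 51.3 CPM in KO Control, and by 3.02 ± 0.08 in WT, to 6.51 CPM in WT LPS against 52.8 CPM in WT Control. Casp6 was thus lower in KO LPS than in WT LPS (-1.21 ± 0.10, adjusted p = 8.1e-08), and the interaction was called (-1.17 ± 0.12, adjusted p = 8.0e-06). Xiap, which inhibits caspases, was higher in KO LPS, at 273 CPM against 236 CPM in WT LPS (0.21 ± 0.06, adjusted p = 0.021), and Birc5 was lower, at 23.7 CPM against 35.7 CPM (-0.59 ± 0.17, adjusted p = 0.032). These 3 were the genes called of 17 between KO LPS and WT LPS, where 10.8% of all genes were called. Without WT LPS replicate 2, where 27.9% of all genes were called, 6 were called higher and 2 lower. In untreated cells 0 of 17 were called by edgeR, DESeq2 or limma-voom, 2 had an unadjusted p below 0.05, and 1 was called lower in KO without WT LPS replicate 2, where 6.28% of all genes were called.

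In the death receptor and necroptosis arm, 8 of 12 genes rose and 3 fell with LPS in each genotype. The share of all genes called with LPS was 86.2% in KO and 85.5% in WT. Cflar, which encodes the caspase 8 inhibitor FLIP, rose by 4.44 ± 0.14 in KO and 4.10 ± 0.14 in WT, and Fas rose by 5.42 ± 0.34 and 5.99 ± 0.36. Between KO LPS and WT LPS, Tnfrsf10b and Tnfrsf1a were higher in KO (0.46 ± 0.14 and 0.14 ± 0.04, adjusted p = 0.035 and 0.036), and the adaptor Fadd was lower (-0.31 ± 0.10, adjusted p = 0.044). With all libraries, 10.8% of all genes were called in this comparison. Without WT LPS replicate 2, where 27.9% of all genes were called, 4 of 12 were called higher and 1 lower. In untreated cells 0 of 12 were called by any of the 3 tools, and 0 had an unadjusted p below 0.05. Of 8 genes listed under MCL1 protein turnover, 5 rose and 3 fell with LPS in KO, and 4 rose and 3 fell in WT. MCL1 protein was not measured, and whether each listed gene acts on it was not tested. Trib1, a pseudokinase that recruits the ubiquitin ligase COP1, was called in every comparison. It averaged 411 CPM in KO LPS, 285 CPM in WT LPS, 7.32 CPM in KO Control and 3.64 CPM in WT Control, and was higher in KO by 0.53 ± 0.07 with LPS (adjusted p = 8.8e-05) and by 1.01 ± 0.11 without (adjusted p = 2.4e-05). Between KO LPS and WT LPS, edgeR called no other gene of the 8, limma-voom called 1 of the 8 and DESeq2 2, all higher in KO, and without WT LPS replicate 2 edgeR called 2 higher and 1 lower (27.9% of all genes in that fit).

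Of 16 transcription factors with known targets in the family, 9 rose and 6 fell with LPS in each genotype. Over all genes, 86.2% in KO and 85.5% in WT were called with LPS in either direction. Rel, an NF-kB subunit, rose by 3.87 ± 0.10 in KO and 3.50 ± 0.09 in WT, and Foxo3, a known activator of Bcl2l11 and Bbc3, had log2 fold changes of -2.20 ± 0.09 in KO and -2.37 ± 0.09 in WT. Between KO LPS and WT LPS, 5 of the 16 were higher and 2 lower in KO, next to 5.30% and 5.50% of all genes. Without WT LPS replicate 2, where 27.9% of all genes were called, 5 were higher and 4 lower. Stat5a averaged 1013 CPM in KO LPS and 695 CPM in WT LPS (0.54 ± 0.16, adjusted p = 0.039), and Stat5b 308 CPM and 237 CPM in the same groups (0.38 ± 0.10, adjusted p = 0.019). Stat3 averaged 781 CPM in KO LPS and 1002 CPM in WT LPS (-0.36 ± 0.07, adjusted p = 0.0035), and 170.2 CPM in KO Control and 173 CPM in WT Control (-0.03 ± 0.08, adjusted p = 0.94). Differences between the LPS groups were not limited to STAT genes. Myc averaged 56.7 CPM in KO LPS and 40.6 CPM in WT LPS, and Runx1 41.7 CPM and 56.5 CPM in the same groups. STAT5 is a known activator of Bcl2l1 in blood cells, and its part in the Bcl2l1 difference was not tested. In untreated cells 0 of the 16 were called by any of the 3 tools, and the unadjusted p was below 0.05 for 0 of them. Of 15 p53 target genes other than the members, 11 rose and 4 fell with LPS in each genotype. In KO LPS against WT LPS, 6 were higher and 0 lower, next to 5.30% and 5.50% of all genes. The list median in that comparison was 0.21 against -0.02 over all genes. Cdkn1a, the cell cycle inhibitor p21, averaged 2349.6 CPM in KO LPS and 1775 CPM in WT LPS (0.40 ± 0.11, adjusted p = 0.022), and Trp53inp1 8.82 CPM and 5.75 CPM in the same groups (0.62 ± 0.14, adjusted p = 0.0069). In untreated cells 0 of 15 were called by any of the 3 tools, with 2 at an unadjusted p below 0.05.

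Over all 18 libraries, the genes whose log2 levels ran most like each of the 3 members called between KO and WT were taken from 8966 genes by Pearson's r. For Bcl2l1 they were Ikbke (r = 0.9995) and Kpna4 (r = 0.9995), for Bbc3 Sema4a (r = 0.995) and Cd74 (r = 0.994), and for Bid Apbb1ip (r = 0.900) and Mfsd11 (r = 0.827). The libraries fall into an LPS and a control cluster, so that for Bcl2l1 and Bbc3 these values rest mostly on the LPS response they share. Computed on deviations from the group means, the same pairs had r of 0.972 and 0.979 for Bcl2l1, 0.556 and 0.634 for Bbc3 and 0.831 and 0.815 for Bid.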

How the data were processed

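RNA-seq of 18 libraries was analysed at the level of genes. The submitters' processing notes name Bowtie2, HISAT and the build GRCm39, with no versions; the annotation and counter were not given in the sources used here, so neither is named. The authors deposited an estimated count, a TPM and an FPKM for each gene and library, per the file headers. The deposited estimated counts are not normalized (6.37% of them are not whole at a tolerance of 0.001) and were rounded for the tests. The authors' TPM, scaled by transcript length to a common sum, served only to compare levels between genes, and the FPKM deposited by the authors only to check whether the length used for each gene was alike in all libraries. For Bcl2 it was not: the implied length ran between 5177 and 6185 bases, so its TPM does not rest on a common length. That of Bcl2l1 ran between 2159 and 2222 bases.

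With edgeR 4.0.16 (R 4.3.3), a quasi-likelihood model with a mean for each group was fitted to the 18 libraries and 11989 genes (filter: minimum count 10, minimum total 15), and 5 contrasts were adjusted over all genes by the Benjamini-Hochberg method. Fold changes are log2 values with SE; CPM are scaled by TMM factors, which ran between 0.743 and 0.791 in KO LPS, 0.745 and 0.850 in WT LPS, 1.32 and 1.33 in KO Control and 1.35 and 1.37 in WT Control. Intervals are 95% intervals of the fit. The procedure was tested on simulated counts. Replicates differed by more than counting error, the chi-square divided by its degrees of freedom being 2.69 to 73.5 in 32 pairs. Alternatives were RLE, total-count scaling, no filter, unrounded counts, DESeq2 1.42.0, limma-voom (limma 3.58.1), replicate blocks, only the compared groups, and leaving out libraries.

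Members and gene lists were chosen with earlier results of these data known. Genes outside the 9 are named by a rule: in each list and comparison up to 3 called genes a direction with the largest fold changes that reach 5 CPM, any other gene of the BCL2 family, and the 2 genes most like each member called between KO and WT.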

Additional observations from a re-analysis of the deposited data

Results flagged for a closer look

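In 36 gene-by-group sets of 4 or 5 libraries, 5 held a library far from the others, by a criterion that chance meets in about 1 of 20 sets. KO LPS replicate 2 was low in Bax, at 74.8 CPM with the nearest other library at 104 CPM, and in Bbc3, at 46.8 CPM with the nearest at 53.9 CPM. WT LPS replicate 2 was low in Bcl2, at 17.9 CPM with the nearest at 23.4 CPM, and high in Mcl1, at 1840.1 CPM with the nearest at 1579 CPM. KO Control replicate 4 was high in Bax, at 62.8 CPM with the nearest at 53.9 CPM. Thus 4 of the 5 lay in replicates 2 of the LPS groups.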

How the results depend on the processing

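Of the 45 member differences, 1159 recomputed values kept their direction and side of the threshold, 26 passed it newly, 29 no longer passed and 37 changed sign. In untreated cells the count of members called was 2 with a replicate block by library number (5.12% of all genes called), with only the compared groups (7.71%) and without library numbers 5 and 7 (replicates 2 of both LPS groups; 6.88%), and 1 to 2 with 1 library left out. For KO LPS against WT LPS it was 1 with total-count scaling (12.9% of all genes called), 0 with only the compared groups (5.53%), 6 without library numbers 5 and 7 (27.1%), 5 without WT LPS replicate 2 (27.9%), 2 with a replicate block (10.0%), which ended the call of Bbc3 (adjusted p = 0.066), and 0 to 5 with 1 library left out, with 0 without WT LPS replicate 4 or KO LPS replicate 1 and 1 (Bcl2l1) without WT LPS replicate 5 or KO LPS replicates 3, 4 or 5. The interaction gave 2 without library numbers 5 and 7 (13.3%) and 0 to 1 with 1 library left out. Signs turned for small differences. In KO Control against WT Control, Bid was -0.025 with total-count scaling, -0.00043 with only the compared groups, -0.0032 without library numbers 5 and 7 and between -0.0036 and 0.041 with 1 library left out. In KO LPS against WT LPS, total-count scaling gave -0.017 for Bcl2, -0.077 for Bak1 and -0.053 for Pmaip1, only the compared groups gave -0.0011 for Bak1, and dropping library numbers 5 and 7 gave -0.0077 for Bcl2. With LPS in KO, total-count scaling gave -0.71 for both Bcl2 and Bid. In the interaction, Mcl1 was 0.031 with RLE and DESeq2 and 0.11 without library numbers 5 and 7, and total-count scaling gave -0.024 for Bax and -0.012 for Bak1. With 1 library left out, the values ran between -0.0056 and 0.10 for Bcl2, -0.0062 and 0.024 for Bak1 and -0.0097 and 0.082 for Pmaip1 in KO LPS against WT LPS, and in the interaction between -0.031 and 0.049 for Mcl1, -0.037 and 0.11 for Bax and -0.020 and 0.30 for Bcl2l11. The cause of these changes was not tested. Pairing of the samples was looked for in deviations from the group means. By the replicate numbers of the titles, their correlation between KO and WT was 0.0287 to 0.248 in untreated cells and 0.00923 to 0.353 with LPS. For LPS against control it was -0.109 to 0.111 in KO and -0.221 to 0.273 in WT. By the run of library numbers it was 0.140 to 0.273 in WT and -0.031 to 0.136 in KO for LPS against control. Blocking on that run called 16.0% of all genes in KO LPS against WT LPS, where the main fit called 10.8%. In the interaction the block called 7.36% and the main fit 3.82%. These values do not settle whether the samples are paired.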
